A study of Mus musculus with 84 samples.

Results

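The 10 genes described here carry out bile acid synthesis and transport in the liver. They were taken by symbol from the gene count table: the cytochrome P450 enzymes Cyp7a1, Cyp8b1, Cyp27a1 and Cyp7b1, the repressor Nr0b2, the uptake carriers Slc10a1, Slco1a1, Slco1a4 and Slco1b2, and the exporter Abcb11. They are 10 of 17695 genes in the table, and all 10 were among the 10415 genes tested, those with a median count above 8 over all mice. The livers came from 84 male B6C3F1 mice, a hybrid strain, each mouse giving 1 sample, with archived frozen tissue measured by TempO-Seq, in which pairs of detector oligos are ligated on their target mRNA and the products are counted by sequencing. From 8 weeks of age the mice ate for 7 days a control diet (0 ppm) or a diet with 1 of 3 organophosphate pesticides (OPPs): fenthion (FT) at 2.5, 5, 10 or 20 ppm, methidathion (MT) at 10, 25, 50 or 100 ppm, or parathion (PT) at 20, 40 or 80 ppm. Per the study's methods, PT at 40 and 80 ppm significantly lowered body weight and relative liver weight, which FT and MT did not. Serum liver enzymes and liver histopathology showed no significant effects. A higher PT dose was left out of the study because of morbidity and deaths. Each of the 12 groups held 7 mice, spread over experimental blocks 1, 3 and 4 with 2, 3 and 2 mice. RNA was isolated at either of 2 laboratories, labelled EA and EPA, and 7 mice were EPA samples, 2 of them controls and 0 of them PT 80 ppm mice. The mice were housed in shared cages and the labels do not say which mice shared one, so p-values treat each mouse as independent.

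Bile acids are made from cholesterol in hepatocytes. Cyp7a1 opens the main (neutral) route and is its rate-limiting enzyme, Cyp8b1 sets the share of cholic acid, and Cyp27a1 and Cyp7b1 act in the alternative (acidic) route. Nr0b2 (SHP) is a nuclear receptor without a DNA-binding domain that represses bile acid synthesis when bile acids activate the receptor FXR (Nr1h4). Bile acids returning in portal blood are taken up by Slc10a1 (NTCP) and by carriers of the Slco (OATP) family, and Abcb11 (BSEP) pumps them into bile. Slco1a1 and Cyp7b1 are known in mouse liver as male-predominant and Slco1a4 as female-predominant, and Slco1a4 is a known target of the xenobiotic receptors CAR (Nr1i3) and PXR (Nr1i2).

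The members lie on 7 chromosomes of the mouse genome (GRCm39, GENCODE coordinates of the whole gene; the probe positions within the genes are not in the data used here). Cyp7a1 (ENSMUSG00000028240) is at chr4:6265612-6275633 and Nr0b2 (ENSMUSG00000037583) at chr4:133280678-133283847. Cyp8b1 (ENSMUSG00000050445) is at chr9:121743422-121745371, Cyp27a1 (ENSMUSG00000026170) at chr1:74752314-74777056 and Cyp7b1 (ENSMUSG00000039519) at chr3:18117411-18297740. Slc10a1 (ENSMUSG00000021135) is at chr12:80996372-81015479 and Abcb11 (ENSMUSG00000027048) at chr2:69068544-69173315. The 3 Slco genes lie near each other on chromosome 6: Slco1b2 (ENSMUSG00000030236) at chr6:141575179-141633546, Slco1a4 (ENSMUSG00000030237) at chr6:141751165-141802036 and Slco1a1 (ENSMUSG00000041698) at chr6:141853007-141892690. Their sequences are related, and reads that match more than 1 of them could be divided in the counting. Of the 84 mice, the count was not a whole number (by more than 0.001) in 83 for Slc10a1, 80 for Abcb11, 4 for Slco1a1 and 1 for Slco1a4, and in none for the other 6 members.

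The promoters of Slco1a4, Slco1a1 and Abcb11 are shown because Slco1a4 had the largest change at PT 80 ppm, Slco1a1 lies near it and has the opposite sex bias, and Abcb11 was the 1 member called lower against control (RefSeq, build GRCm38.p6, the 250 bases before the transcription start, 5′ to 3′ on the gene's strand). Capitals mark the nuclear receptor half-sites AGGTCA and AGTTCA on either strand.
Slco1a4 (chr6:141856221-141856470, minus strand): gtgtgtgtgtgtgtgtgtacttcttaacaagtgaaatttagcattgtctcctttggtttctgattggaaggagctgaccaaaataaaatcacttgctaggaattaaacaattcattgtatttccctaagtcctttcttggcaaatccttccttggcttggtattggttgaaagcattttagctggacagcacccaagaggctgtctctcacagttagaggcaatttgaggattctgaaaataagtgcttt
Slco1a1 (chr6:141946963-141947212, minus strand): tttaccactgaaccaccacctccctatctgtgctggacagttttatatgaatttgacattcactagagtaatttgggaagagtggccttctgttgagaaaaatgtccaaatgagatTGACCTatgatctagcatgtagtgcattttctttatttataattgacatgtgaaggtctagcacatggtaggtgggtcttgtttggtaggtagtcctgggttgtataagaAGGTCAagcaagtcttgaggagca
Abcb11 (chr2:69342617-69342866, minus strand): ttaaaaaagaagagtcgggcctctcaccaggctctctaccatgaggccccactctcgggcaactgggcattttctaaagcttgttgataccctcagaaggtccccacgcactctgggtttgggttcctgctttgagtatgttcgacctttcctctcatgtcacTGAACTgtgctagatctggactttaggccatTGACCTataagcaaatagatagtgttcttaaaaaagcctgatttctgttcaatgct
The Slco1a1 window holds 2 matches, both AGGTCA, with their first bases at positions -134 and -24 from the start. The Abcb11 window holds 1 AGGTCA and 1 AGTTCA, at positions -56 and -87, and the Slco1a4 window holds neither. RefSeq entries were found for 8 of the 10 members (9 entries, as Slc10a1 had 2), and 5 of the 8 had a match. Over the same length, 24.2% of 32851 promoters hold either half-site (14.02% AGGTCA, 11.8% AGTTCA). The entries for Cyp7a1 and Cyp7b1 were not in the table used.

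Levels are given as CPM, a gene's count divided by the library size, scaled by the trimmed mean of M-values (TMM), and multiplied by 1000000. Log2 fold changes come from a quasi-likelihood fit in edgeR that held group, block and RNA isolator, with p-values adjusted over all 10415 genes with the Benjamini-Hochberg method (adjusted p), and a gene is called at an adjusted p under 0.05. Library totals ran from 6950381 to 15300589 counts, so 3 counts correspond to 0.196 to 0.432 CPM. No pair of libraries of 1 group looked like 1 library deposited again. The lowest chi-square per degree of freedom among 252 within-group pairs was 7.41, and 0 pairs were identical. The 6 hepatocyte markers tested summed to between 18681 and 38256 CPM in the control mice.

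Against control, members were called in the PT 80 ppm group and at no other dose. This group also had lower body weight and relative liver weight per the study's methods. The part of these weight changes in the results was not tested. At PT 80 ppm, 4 of 10 members were called, where 18.6% of all tested genes were (1941 of 10415). Slco1a4, Cyp7a1 and Slc10a1 were higher (9.75% of all genes were called higher) and Abcb11 was lower (8.89% of all genes were called lower). Slco1a4 and Cyp7a1 differed by at least 2-fold, against 3.30% of all genes. The median log2 fold change of the members was 0.14 (all genes 0.01), and the median absolute log2 fold change was 0.38 (all genes 0.19).

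Slco1a4 was 4.47, 6.76 and 17.7 CPM (lowest, median and highest) in control livers and 21.9, 65.8 and 246 CPM in PT 80 ppm livers. All 7 dosed mice exceeded the highest control, the only member and group among all 11 dosed groups for which the values did not overlap. The share of all tested genes without overlap at this dose was not counted, so how common such a separation is remains unknown. The means were 9.61 ± 5.14 and 95.3 ± 81.2 CPM (SD, n = 7), and the log2 fold change was 3.12 with an SE of 0.30 (8.69-fold, adjusted p = 1.7e-12 by edgeR). The 95% interval ran from 2.52 to 3.72. Within blocks 1, 3 and 4 the difference of mean log2(CPM + 1) was 3.56, 2.93 and 2.24.

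**Figure D1:**
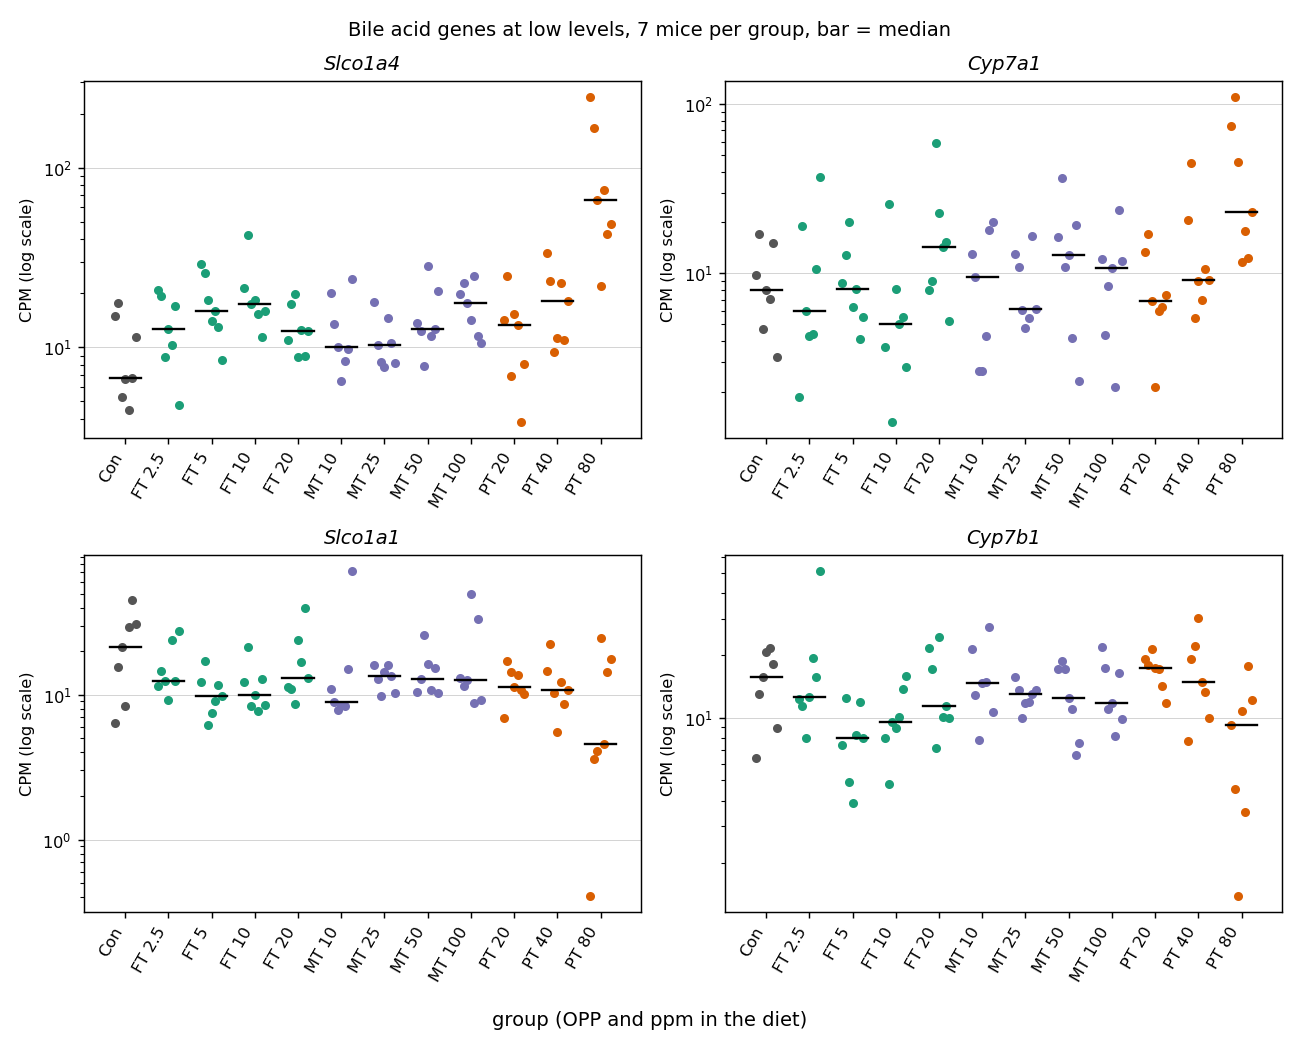
CPM on a log axis of 4 members at low levels (Slco1a4, Cyp7a1, Slco1a1 and Cyp7b1), 1 point per mouse in each of the 12 groups, with a bar at the median. Nr0b2, at a lower level than these, is not shown. All 7 PT 80 ppm mice lie above the highest control for Slco1a4 and 5 of 7 do for Cyp7a1, while 4 of 7 lie below the lowest control for Slco1a1.

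Cyp7a1 was 3.198, 8.02 and 17.1 CPM (lowest, median and highest) in controls and 11.6, 22.9 and 110 CPM in PT 80 ppm livers. Of the 7 PT 80 ppm mice, 5 exceeded the highest control. Means were 9.27 ± 5.17 and 42.1 ± 37.5 CPM (SD, n = 7) and the log2 fold change was 2.24 with an SE of 0.54 (4.72-fold, adjusted p = 0.00142). The difference in log2(CPM + 1) was 2.72, 1.58 and 1.12 in blocks 1, 3 and 4. Cyp7a1 was also the member with the widest spread between mice of a group, with a residual SD of 0.91 on the log2(CPM + 1) scale, against 0.22 for Cyp27a1.

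The other synthesis enzymes did not pass the test against control. Cyp7b1 was 15.02 ± 5.88 CPM in controls and 8.48 ± 5.72 CPM at PT 80 ppm (SD, n = 7), with 3 of 7 dosed mice below the lowest control (log2 fold change -0.84, SE 0.35, adjusted p = 0.0857). Within blocks its difference was -0.43, -2.02 and 0.19. Cyp27a1 was 153 ± 26.3 and 175 ± 77.2 CPM (0.25, SE 0.12, adjusted p = 0.151), and Cyp8b1 was 190.3 ± 43.1 and 199 ± 91.9 CPM (0.06, adjusted p = 0.853). For Cyp27a1 the highest PT 80 ppm mouse, replicate 1, was at 342 CPM with the next at 187. The repressor Nr0b2 was 2.49 ± 1.19 CPM in controls and 2.68 ± 1.51 CPM at PT 80 ppm (0.11, adjusted p = 0.858), a low level at which the 3-count floor is a sizeable share of the value.

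Among the uptake carriers, Slc10a1 was 275, 482 and 842 CPM (lowest, median and highest) in controls and 538, 607 and 845 CPM at PT 80 ppm, so the groups overlapped. The means were 499.9 ± 181 and 679.6 ± 143 CPM (SD, n = 7), with a log2 fold change of 0.43 and an SE of 0.12 (1.34-fold, adjusted p = 0.00945). With the EA mice alone the adjusted p was 0.0890, and with only control and PT groups in the fit it was 0.146. Slco1a1 was 22.4 ± 13.8 CPM in controls and 9.91 ± 9.05 CPM at PT 80 ppm, with 4 of 7 dosed mice below the lowest control of 6.38 CPM, but it did not pass the test (log2 fold change -0.64, SE 0.36, adjusted p = 0.221). Slco1b2 was 937.7 ± 265 and 1084 ± 327 CPM (0.17, adjusted p = 0.466).

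**Figure D2:**
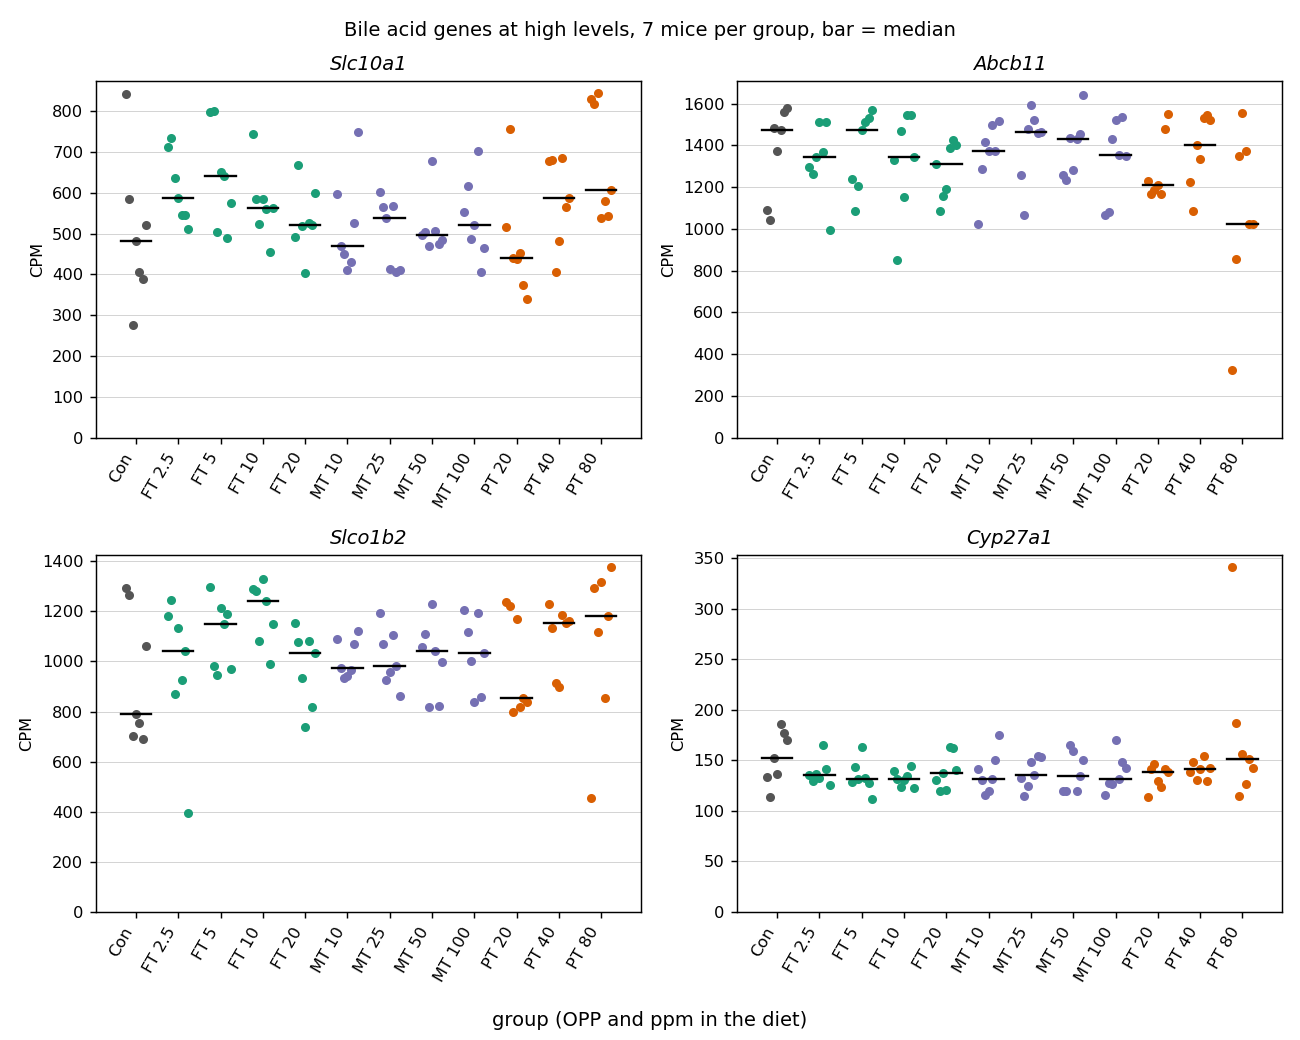
CPM on a linear axis from 0 of 4 members at high levels (Slc10a1, Abcb11, Slco1b2 and Cyp27a1), 1 point per mouse in each of the 12 groups, with a bar at the median. The PT 80 ppm mice overlap the controls for each gene, and 1 of them is at 325 CPM for Abcb11 and 342 CPM for Cyp27a1.

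The exporter Abcb11 was 1044, 1474 and 1579 CPM (lowest, median and highest) in controls and 325, 1024 and 1554 CPM at PT 80 ppm. Of the 7 PT 80 ppm mice, 4 lay below the lowest control. Means were 1372 ± 219 and 1072 ± 410 CPM (SD, n = 7), with a log2 fold change of -0.34 and an SE of 0.12 (adjusted p = 0.0455). The call rests on PT 80 ppm replicate 1, the mouse at 325 CPM, without which the log2 fold change was -0.18 (adjusted p = 0.232). It was also lost with each of PT 80 ppm replicates 2, 6 and 7 left out (adjusted p from 0.0766 to 0.0779) and with each of 6 of the 7 control mice left out. Replicate 1 stood apart from the other PT 80 ppm mice for Slco1a1 (0.409 CPM, others from 3.61), Slco1b2 (456 CPM, others from 853) and Cyp27a1. Its summed level of Kupffer cell markers was 13.5 CPM, against 54.6 to 98.0 CPM in the other PT 80 ppm mice and 84.7 to 152 CPM in controls.

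Without replicate 1, 3 members were called against control (Cyp7a1, Slc10a1 and Slco1a4), and 12.3% of all genes (1276). Slco1a4 then had a log2 fold change of 2.86 (adjusted p = 1.07e-11), Cyp7a1 2.17 (adjusted p = 0.0037) and Slc10a1 0.42 (adjusted p = 0.0201). Slco1b2 then had a log2 fold change of 0.32 (adjusted p = 0.0745). Control replicates 3 to 6 had the highest summed acute-phase mRNA, 64502 to 111640 CPM, against 14198 to 25434 CPM in control replicates 1, 2 and 7 and 11223 to 25965 CPM at PT 80 ppm. The 4 lowest control values of Slco1a4, Slc10a1 and Slco1b2 were in those same 4 mice, and the part of this difference in the results was not tested.

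**Figure D3:**
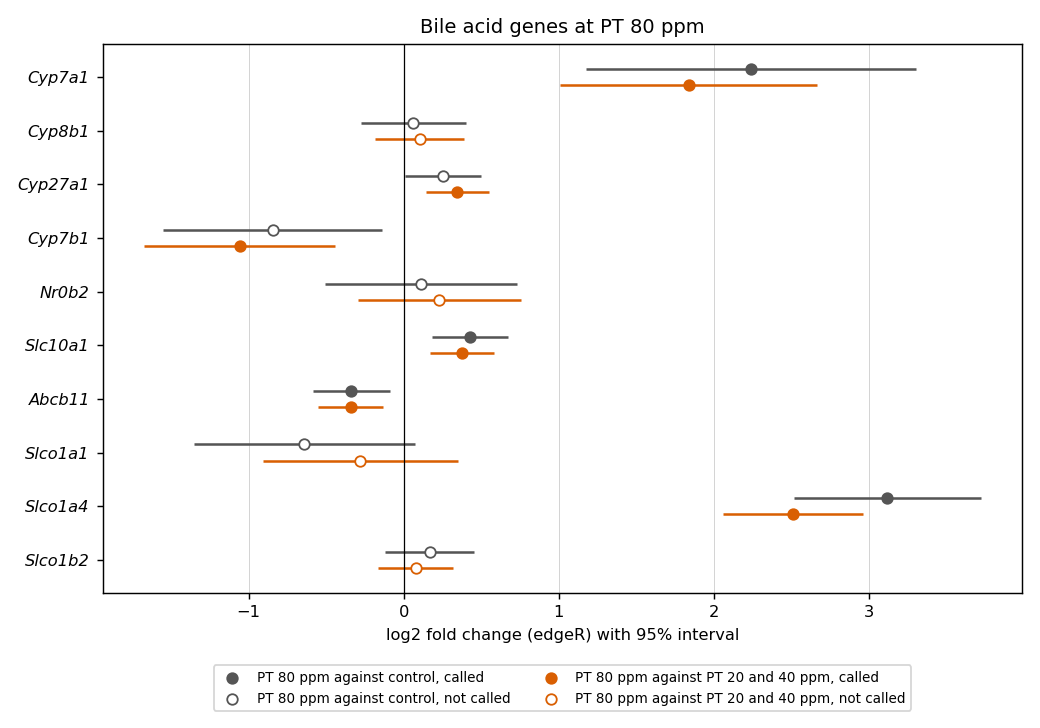
Log2 fold change of the 10 members at PT 80 ppm against control (grey) and against PT 20 and 40 ppm (orange), with 95% intervals from edgeR. Filled points are called (4 and 6 members), and Slco1a4 (3.12 and 2.51) and Cyp7a1 (2.24 and 1.84) lie farthest to the right.

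Compared with the lower PT doses (PT 80 ppm against the mean of 20 and 40 ppm), a comparison that uses no control mice, 6 of 10 members were called (25.7% of all genes were called, 2678). Of these, 4 were higher (13.4% of all genes) and 2 lower (12.4% of all genes), and 3 differed by at least 2-fold (2.66% of all genes). Slco1a4 differed most, with a log2 fold change of 2.51 and an SE of 0.23 (5.69-fold, adjusted p = 7.79e-14), and Cyp7a1 followed with 1.84 and an SE of 0.42 (3.57-fold, adjusted p = 0.00054). Cyp7b1 was lower, by a log2 fold change of -1.06 with an SE of 0.31 (adjusted p = 0.00755). It ran from 11.9 to 21.5 CPM in PT 20 ppm livers and from 7.70 to 30.2 CPM in PT 40 ppm livers, and from 1.39 to 17.8 CPM at PT 80 ppm. Slc10a1 was higher by 0.37 (adjusted p = 0.00478) and Cyp27a1 by 0.35 (adjusted p = 0.00839), and Abcb11 was lower (-0.34, adjusted p = 0.0125). Without PT 80 ppm replicate 1, Cyp27a1 (0.10, adjusted p = 0.452) and Abcb11 (-0.18, adjusted p = 0.125) were no longer called and the other 4 were. With only the PT groups in the fit, and no control mice, Cyp7b1 (adjusted p = 0.0527), Abcb11 (adjusted p = 0.126) and Cyp27a1 (adjusted p = 0.124) were not called. This left 3 members.

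**Figure D4:**
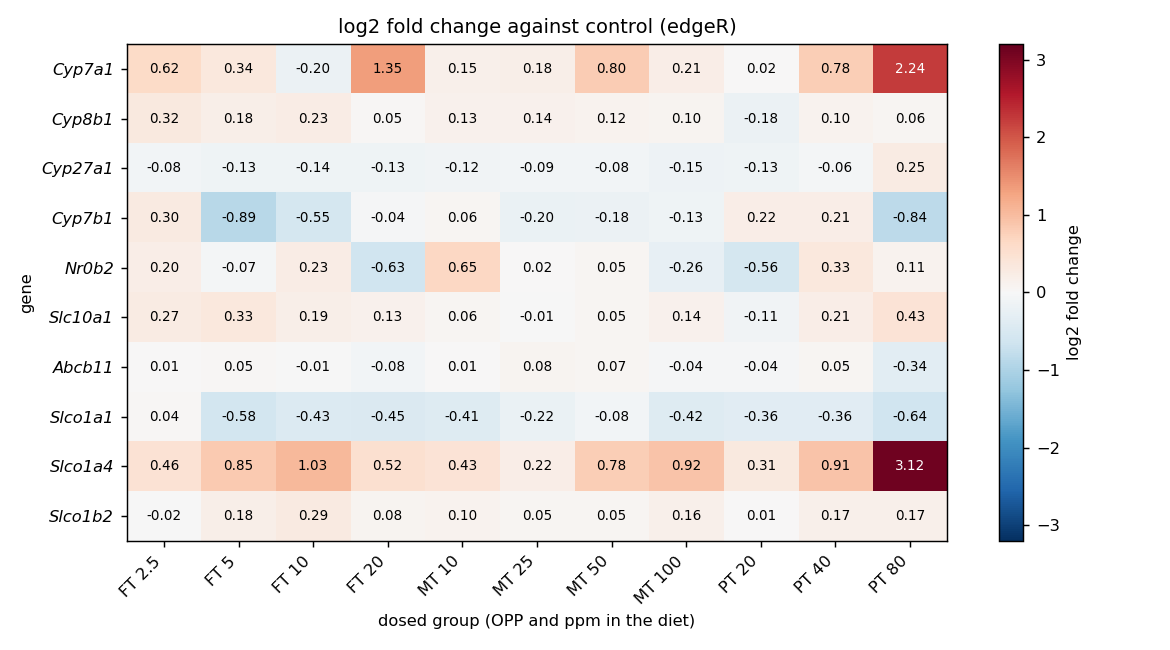
Log2 fold change against control of each member (rows) in each of the 11 dosed groups (columns), with the value in each cell and colour from blue (lower) to red (higher). The PT 80 ppm column holds the values farthest from 0, 3.12 for Slco1a4 and 2.24 for Cyp7a1.

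A joint test of all PT doses called 3 of 10 members (19.6% of all genes, 2038): Slco1a4 (adjusted p = 4.22e-16), Cyp7a1 (adjusted p = 0.000468) and Slc10a1 (adjusted p = 0.00219). The joint tests called 0 of 10 for FT (0.0768% of all genes) and 0 of 10 for MT (0.0864% of all genes). There, 3 and 2 members had an unadjusted p under 0.05 by edgeR, as had 1539 and 959 of all 10415 genes.

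No member was called at a lower dose. At FT 2.5, 5, 10 and 20 ppm the called share of all genes was 0.00960%, 0%, 1.57% and 0%, at MT 10, 25, 50 and 100 ppm 0%, 0%, 0.00960% and 0.0768%, and at PT 20 and 40 ppm 0.00960% and 0%. Over the 16 comparisons with no member called there were 160 member tests, of which 21 had an unadjusted p under 0.05 by edgeR. Per comparison these were 0 to 3 of the 10 members, beside 354 (FT 20 ppm against PT 20 ppm) to 1843 (FT 10 ppm) of all 10415 genes. DESeq2 called 2 of the 160 (Slco1a4 in FT 10 ppm and in MT 100 ppm), and its share of all genes is not given here. Slco1a4 in FT 10 ppm was 11.4, 17.4 and 42.3 CPM (lowest, median and highest), with a log2 fold change of 1.03 and an SE of 0.30 (adjusted p = 0.0504), and in MT 100 ppm it was 10.6, 17.6 and 25.1 CPM, with 0.92 and an SE of 0.29 (adjusted p = 0.139). The FT 10 ppm value passed the threshold with DESeq2, with DESeq2 size factors in edgeR, without the isolator term, and with limma on log2(CPM + 1). It also passed when any 1 of FT 10 ppm replicates 1, 5 and 6 or control replicates 2 and 7 was left out.

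Log2 fold changes at the 10 lower doses ran from -0.89 (Cyp7b1, FT 5 ppm) to 1.35 (Cyp7a1, FT 20 ppm, adjusted p = 0.999). The last value was 0.40 without FT 20 ppm replicate 3, a mouse at 58.9 CPM. Slco1a4 was above control in 10 of 10 lower doses (0.22 to 1.03) and Cyp27a1 below it in 10 of 10 (-0.15 to -0.06), and Slco1a1 was below it in 9 of 10. All 10 estimates share the same 7 control mice. Ordered by mean CPM over the 12 groups, 0 of 110 steps between neighbouring groups exceeded the larger SD of the pair for any member. Cyp7a1 was highest at PT 80 ppm (42.1 CPM), then FT 20 ppm (19.04 CPM). The comparisons of the highest dose with the lower doses of the same pesticide called 0 of 10 members for FT (0% of all genes, 765 genes with an unadjusted p under 0.05, 2 of them members) and 0 of 10 for MT (0.0288% of all genes).

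The OPPs were also compared where the feed level and, by the study's methods, the estimated intake were the same. All 3 compounds have a sulfur doubly bonded to phosphorus. Methidathion, a phosphorodithioate, also has a sulfur singly bonded to it, fenthion is a dimethyl phosphorothioate and parathion a diethyl phosphorothioate. FT and MT were compared at 10 ppm and FT and PT at 20 ppm, which makes 20 member tests in 2 pairs, adjusted over all genes of each pair. FT 10 ppm against MT 10 ppm called 0 of 10 members (0% of all genes, 797 genes with an unadjusted p under 0.05 by edgeR), and FT 20 ppm against PT 20 ppm called 0 of 10 (0% of all genes, 354 such genes). For FT against MT, the largest differences were -0.61 for Cyp7b1 (95% interval -1.29 to 0.07) and 0.60 for Slco1a4 (0.03 to 1.17, unadjusted p = 0.041 and adjusted p = 0.645 by edgeR). For FT against PT, Cyp7a1 was 1.33 (0.25 to 2.40, unadjusted p = 0.017 and adjusted p = 0.999 by edgeR). Slco1a4 was 0.21 in that pair (-0.37 to 0.80) and Slc10a1 0.24 (-0.01 to 0.49). The narrowest intervals in both pairs were those of Cyp27a1 (-0.26 to 0.22 for FT against MT and -0.24 to 0.25 for FT against PT), followed by Abcb11 (-0.27 to 0.22 and -0.29 to 0.21). A p that misses the threshold does not show that the compounds act alike.

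The rest of the pathway was read from lists of 48 tested genes. At PT 80 ppm against control, where 9.75% of all genes were called higher and 8.89% lower, 5 of 17 other synthesis genes were higher and 2 lower. Cyp39a1, an oxysterol 7-alpha-hydroxylase, was 1.46 ± 0.502 CPM in controls and 10.7 ± 12.4 CPM at PT 80 ppm (6.50-fold, SE of the log2 fold change 0.34, adjusted p = 1.45e-08). Without PT 80 ppm replicate 1 it was 3.94-fold (adjusted p = 2.18e-07). Cyp46a1 (log2 fold change 0.97) and Akr1d1, which reduces the steroid double bond (log2 fold change 0.77), were also higher. Scp2, the peroxisomal thiolase and lipid carrier, was lower (log2 fold change -0.88, SE 0.15, adjusted p = 1.42e-05), and so was Hsd3b7 (-0.46). Of 13 other transport genes, 5 were higher and 3 lower. The basolateral exporter Abcc3 was 7.45 ± 2.76 CPM in controls and 24.95 ± 5.86 CPM at PT 80 ppm (highest control 11.8, lowest dosed 18.6 CPM, log2 fold change 1.87, adjusted p = 1.05e-07). Abcb1a (1.21) and Abcg5 (0.95) followed, and Slc22a7 (-1.52), Slco2b1 (-0.55) and Atp8b1 (-0.31) were lower.

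Of 18 regulators tested, 7 were higher and 1 lower at PT 80 ppm against control, beside the same 9.75% and 8.89% of all genes. Nr1i3 (CAR) was 215.7 ± 77.1 CPM in controls and 712 ± 215 CPM at PT 80 ppm (log2 fold change 1.78, SE 0.24, adjusted p = 5.14e-08). The clock output gene Dbp (2.06, SE 0.67, adjusted p = 0.0214) and the coactivator Ppargc1a (1.10) were higher, although the groups overlapped for Dbp (8.17 to 528 CPM in controls, 46.4 to 564 CPM at PT 80 ppm). Fgfr4, the receptor for the gut hormone FGF15, was lower (-0.32). Klb, from the same list, was among the 7 higher. Its log2 fold change without PT 80 ppm replicate 1 was 0.99 (adjusted p = 0.000704 by edgeR). FXR (Nr1h4) did not pass the test (0.27, adjusted p = 0.0565). Without PT 80 ppm replicate 1, Hsd3b7, Abcg5, Atp8b1 and Slco2b1 were no longer called and Nr1h4 was. Against the lower PT doses, where 13.4% of all genes were called higher and 12.4% lower, 7 of the 17 synthesis genes were higher and 4 lower, 6 of the 13 transport genes were higher and 4 lower, and 7 of the 18 regulators were higher and 1 lower. Without replicate 1 the synthesis genes gave 6 higher and 3 lower (Abcd3 and Acox2 lost), the transport genes 5 higher and 2 lower (Abcc4, Abcg2 and Atp8b1 lost), and the regulators again 7 and 1. In the 14 other comparisons of 2 groups or doses, 0 of the 48 genes were called by edgeR and 1 by DESeq2. By edgeR, 0 to 11 of the 48 per comparison had an unadjusted p under 0.05, beside 354 to 1843 of all 10415 genes.

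Genes known for the same sex bias or receptors as the members were counted at PT 80 ppm against control. The lists include the members themselves, whose results are already given above. In this comparison 9.75% of all genes were called higher and 8.89% lower. Of 9 male-predominant genes, which include Slco1a1 and Cyp7b1, 0 were higher and 5 lower, Elovl3 most (0.154-fold). Of 3 female-predominant genes tested, all 3 were higher. Slco1a4 is 1 of them, and the 2 others were Cyp17a1 (log2 fold change 2.38) and Cyp3a41a (1.05). Of 7 CAR and PXR targets, 5 were higher, among them Slco1a4 itself, Abcc3, Cyp2c29 (log2 fold change 1.39) and Cyp3a11 (1.12). Summed without Slco1a4, the 6 other targets had a median of 1227 CPM in controls and 2972 CPM at PT 80 ppm. In MT 100 ppm livers that median was 6398 CPM. The Slco1a4 mean there was 1.81 times that of controls, called by DESeq2 but not by edgeR. Such sums give most weight to the genes at the highest levels. At PT 80 ppm against control, 8 of 14 acute-phase genes were lower. Of 5 Kupffer cell and macrophage markers tested 3 were lower (1 without PT 80 ppm replicate 1, when Cd68 and Clec4f were no longer called). All 3 erythroid markers tested and Spp1, the 1 cholangiocyte marker tested, were lower with and without that mouse. Of 6 hepatocyte markers 1 was higher. Against the lower PT doses, 0 of the 3 erythroid markers were called. There, Spp1 and 3 of the 5 Kupffer cell and macrophage markers were lower, and 3 of the 6 hepatocyte markers were higher. In bulk liver, fewer cells of a type and less RNA per cell cannot be told apart. Whether these changes take part in those of the members was not tested.

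Some members varied together between mice of the same group. Over 84 mice, after removing group, block and isolator, 45 pairs of members were tested with 100000 permutations of mice within groups, and 8 were called at an adjusted p under 0.05, 5 positive and 3 negative. The strongest were Abcb11 with Slco1b2 (r = 0.62, rho = 0.31, permutation p = 0.00326 and 0.0117, adjusted p = 0.021 and 0.048), Slc10a1 with Slco1a4 (r = 0.54, rho = 0.52, p = 1e-05, the smallest the permutations can give, and 2e-05, adjusted p = 0.00045 for both) and Cyp8b1 with Nr0b2 (r = 0.53, rho = 0.50, p = 4e-05 and 5e-05, adjusted p = 0.0009 and 0.00075). Cyp7b1 ran against Slco1a4 (r = -0.45, rho = -0.49) and Slc10a1 (r = -0.40, rho = -0.37), and Cyp7a1 against Abcb11 (r = -0.38, rho = -0.33). The other called pairs were Cyp8b1 with Slc10a1 (r = 0.42) and Slc10a1 with Slco1b2 (r = 0.30). All 8 kept their sign in each of the 3 blocks and without the 2 mice farthest from the median, although Abcb11 with Slco1b2 fell to 0.37 without them. With EA mice alone 5 pairs were called. Correlations of this size were common among liver genes: 14.9% of all pairs of the 10415 tested genes had an absolute r of at least 0.298, the lowest of the called pairs, against 12 of the 45 member pairs (26.7%).

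**Figure D5:**
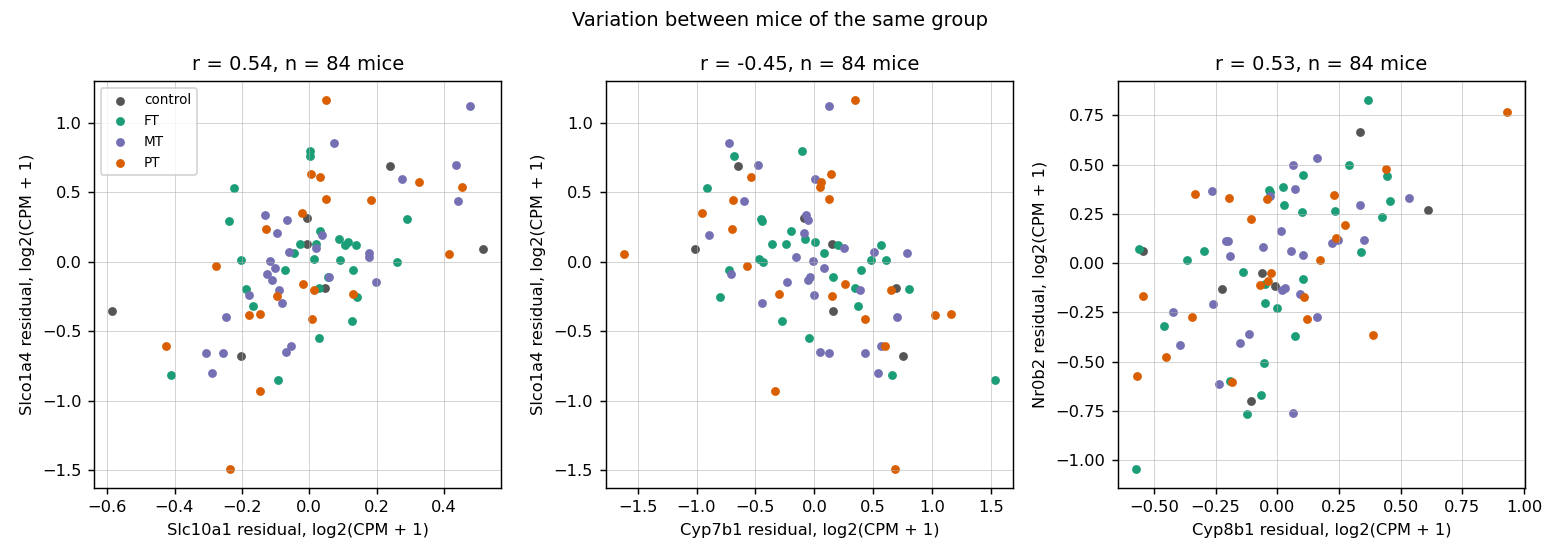
Residual log2(CPM + 1) of pairs of members in 84 mice after removing group, block and isolator, 1 point per mouse coloured by OPP. Slc10a1 and Slco1a4 rise together (r = 0.54), Cyp7b1 and Slco1a4 run in opposite directions (r = -0.45), and Cyp8b1 and Nr0b2 rise together (r = 0.53).

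The tested genes whose residual level over the 84 mice correlated most highly with each member were Slc16a7 for Slco1a4 (r = 0.77), P2ry1 for Cyp7a1 (r = 0.52), Macrod1 for Slc10a1 (r = 0.76), Dnase1l3 for Abcb11 (r = 0.78), Mrpl14 for Slco1b2 (r = 0.87), Coq8a for Cyp8b1 (r = 0.67), Aadat for Cyp7b1 (r = 0.68), Sec14l4 for Cyp27a1 (r = 0.64), Fggy for Slco1a1 (r = 0.70) and Efna1 for Nr0b2 (r = 0.64). These genes were ranked over all tested genes and share the libraries and depth of the members.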

How the data were processed

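TempO-Seq was run on liver RNA of 84 mice. Per the study's methods, reads were trimmed, STAR placed them on mm39 and Partek's expectation/maximization step assigned them to Ensembl transcripts. The authors deposited estimated counts per gene, of which 14.8% were not whole by more than 0.001. They also deposited CPM values log2-transformed with a pseudocount of 1 and adjusted for block and isolator, entered here as a score and used only in 1 alternative. Per the labels the build is mm39 and the tool Partek.

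Counts were rounded and fitted in edgeR 4.0.16 (R 4.3.3) with TMM, group, block and isolator, using all mice and the 10415 of 17695 genes with a median count above 8. Symbols came from GENCODE (GRCm39) for 17660 identifiers. In total 19 comparisons were made, with DESeq2 1.42.0 and limma 3.58.1 as alternatives, and results were adjusted over all tested genes. Correlations used residual log2(CPM + 1). In data simulated for PT 80 ppm against control over 10415 genes, edgeR recovered 91 of 100 genes changed by 1 on the log2 scale and 99 of 100 changed by 2, with 15 false calls. The simulated counts had 1 dispersion per gene for all groups and no block or isolator effects. These rates apply to such data and are no test of the real comparison, where the spread may differ between groups.

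All 10 members are named, and list genes are named where called, in most cases at most 3 per direction, list and comparison. Genes named as most alike are the highest correlations over all tested genes. The members and lists were chosen with earlier results of these data known. Replicate numbers were given in accession order. Leaving out PT 80 ppm replicate 1 from the counts of the gene lists was chosen after seeing the data. Files held no columns of the authors' own comparisons.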

Additional observations from a re-analysis of the deposited data

Results flagged for a closer look

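Single mice stood far from the other 6 of their group in 13 of 120 sets of 7 mice tested for 10 genes in 12 groups (a gap to the nearest mouse larger than Dixon's 95% limit). Chance flags about 1 in 20 sets only where values are normally distributed. The limit was applied to untransformed CPM, so 13 of 120 cannot be set against that rate. FT 10 ppm replicate 2 gave 4 of them, with the highest Cyp7a1 (25.6 CPM), Slco1a1 (21.3 CPM) and Slco1a4 (42.3 CPM) and the lowest Cyp8b1 (119.5 CPM) of its group. Cyp7a1 was also far above the others in FT 20 ppm replicate 3 (58.9 CPM) and PT 40 ppm replicate 2 (45.2 CPM). Cyp27a1 was highest in FT 2.5 ppm replicate 5 (165 CPM) and in PT 80 ppm replicate 1 (342 CPM), and Cyp7b1 in FT 2.5 ppm replicate 7 (50.8 CPM). Slc10a1 was highest in MT 50 ppm replicate 4 (678 CPM) and PT 20 ppm replicate 2 (755 CPM), and Slco1a1 in MT 10 ppm replicate 7 (71.04 CPM, an EPA sample) and MT 50 ppm replicate 3 (25.7 CPM).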

How the results depend on the processing

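Where the main count of called members or pairs was above 0, 55 of 68 alternative counts were within 1.5 times of it; where it was 0, 269 of 293 stayed at 0, which says little about stability. No called log2 fold change of a member reversed. Slco1a4 and Cyp7a1 at PT 80 ppm kept their calls in all settings tried against control and against lower PT doses. With DESeq2 1 member was called in FT 10 ppm and 1 in MT 100 ppm against control and 6 by the joint PT test (limma on log2(CPM + 1) gave 5 there); with DESeq2 size factors, without the isolator term and with limma the FT 10 ppm count was 1. At PT 80 ppm against control 2 members were called with EA mice alone and 2 with only the groups compared in the fit, which also gave 3 against the lower PT doses. EA mice alone gave 5 correlated pairs. For these alternatives the share of all genes called is not given here, so the member counts cannot be set against it. With limma on the deposited adjusted values, group only, counts were 6, 7, 6 and 6 at FT 2.5, 5, 10 and 20 ppm, 5, 4, 4 and 7 at MT 10, 25, 50 and 100 ppm, 6, 5 and 7 at PT 20, 40 and 80 ppm, 9 by each joint test, 1 for MT 100 ppm against lower MT doses and 9 for FT 10 ppm against MT 10 ppm; in this setting 10.9% to 74.3% of all genes were called per comparison, and the cause was not tested. Leaving out 1 mouse at a time gave 0 to 1 members in FT 10 ppm, 3 to 5 at PT 80 ppm against control, 4 to 6 against the lower PT doses, 3 to 5 by the joint PT test and 0 to 0 in the 13 other comparisons tried this way, which did not include the 2 matched pairs. Only mice of control, FT 10 and 20 ppm, MT 100 ppm and PT 80 ppm were left out. For the other doses against control, only control mice were therefore removed. Against the lower doses, only mice of the highest dose were removed. Of single-gene values, 24 lost their call, 15 of them for Abcb11 against control (log2 fold change -0.44 to -0.18 with 1 mouse left out). No paired analysis was possible because replicate numbers in the groups are accession order only and pair no samples; the experimental block was already in the fit. Counts of 3 bound what can be seen at the low level of Nr0b2, and 7 mice per group limit the precision of Cyp7a1.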

Other observations

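Other liver genes also moved at PT 80 ppm against control, where 9.75% of all genes were called higher and 8.89% lower. Of 8 cholesterol synthesis genes tested, 0 were higher and 4 lower, with Sqle, which makes squalene epoxide, at -1.08 (SE 0.30, adjusted p = 0.007 by edgeR) and Hmgcs1 at -1.01 (adjusted p = 0.0184). Without PT 80 ppm replicate 1 the count was 1 lower of 8, and Hmgcs1, Idi1 and Insig1 were no longer called. Of 11 clock genes tested 4 were higher (Dbp, Hlf, Per3 and Tef), with and without that mouse, Hlf most clearly (log2 fold change 1.82, SE 0.28, adjusted p = 1.31e-06). Of the 8 acute-phase genes called lower, Saa2 ranged from 99.1 to 42104 CPM between control mice. The bile acid carrier of ileum and bile duct, Slc10a2, was lower (-0.94, adjusted p = 0.000197), at 141 ± 49.4 CPM in controls and 68.5 ± 23.6 CPM at PT 80 ppm (SD, n = 7). Of the 7 CAR and PXR targets 3 were also called higher in FT 10 ppm, where 1.57% of all genes were called, and 3 in MT 100 ppm, where 0.0768% were.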
